A study of Mus musculus with 10 samples.

Results

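Prostaglandins are made, broken down and sensed by a small set of enzymes and receptors, and 10 of their genes were followed here through 10 mouse mammary tumours. The 10 are the cyclooxygenase genes Ptgs1 and Ptgs2, the prostaglandin E synthase genes Ptges, Ptges2 and Ptges3, the prostaglandin D synthase gene Ptgds, the breakdown enzyme gene Hpgd and the receptor genes Ptger1, Ptger2 and Ptger4. From a table of 26063 genes they were chosen by name, with the strong variation of Ptgds levels over these tumours already known, so the spread of Ptgds is a description and was not tested. Bulk RNA was sequenced from tumours of the mammary gland in female FVB/N mice, of which 5 carried the genotype EIC/WT (EIC below) and 5 the genotype 16IC/WT (16IC below). Every animal of both groups was given doxycycline at 2 mg/ml, and tumours were frozen at end point, so no untreated tumour and no normal gland is part of the comparison. The labels leave EIC and 16IC, the promoter of any transgene and the age of the mice unexplained, and the title speaks of a HER2 variant. Each tumour came from its own animal, and the number behind a genotype only tells the tumours apart.

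Cells free arachidonic acid from their membranes, and a cyclooxygenase turns it into an unstable intermediate from which separate synthases make the individual prostaglandins. Ptgs1 is usually expressed steadily, whereas Ptgs2 is an early response gene that growth factors and inflammatory signals switch on, and its product is a target of aspirin-like drugs. Prostaglandin E made by the Ptges enzymes acts on neighbouring cells through receptors encoded by the Ptger genes, of which Ptger2 and Ptger4 raise cyclic AMP, and Hpgd ends the signal by oxidising it. In breast tumours the pathway is best known for Ptgs2, which has been linked to growth of vessels, to inflammation and to damping of immune responses.

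Libraries held 14813940 to 16947400 counts, of which 0.549% to 1.41% were mitochondrial, and depths of the genotypes overlapped. Below, a level is a count brought to a common library size with edgeR's TMM scaling (CPM), a value after ± is an SD over the 5 tumours of a genotype, and a difference is log2 of 16IC over EIC. Differences were tested with edgeR's quasi-likelihood test over all 14915 genes that passed a filter on low counts, p-values being adjusted after Benjamini-Hochberg and called under 0.05. The tissue label was checked against 8 luminal epithelial markers, which summed to 4282 to 6787 CPM in EIC tumours and 4223 to 6076 CPM in 16IC. Krt19, a luminal keratin, was uneven: it lay between 0 and 3.53 CPM in EIC 2, 16IC 1, 16IC 3 and 16IC 4 and between 233 and 446 CPM in the other 6 tumours. Because these are whole pieces of tumour, fewer cells that express a gene and less RNA per cell cannot be told apart.

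Compared per length, with the authors' FPKM, Ptges3 was the most abundant of the 10 genes, with a median of 44.1 FPKM, and it exceeded the next gene, Ptgs1, in 10 of 10 tumours. Below it came Ptgs1 with a median of 11.3 FPKM, Ptges2 with 8.44 FPKM and Ptges with 6.18 FPKM. This part of the order was loose, since Ptgs1 exceeded Ptges2 in 6 of 10 tumours and Ptges2 exceeded Ptges in 7. Ptgs2, Ptger4, Ptger2 and Hpgd followed with medians of 2.49, 2.25, 1.54 and 1.53 FPKM. Ptger2 exceeded Hpgd in 5 of 10 tumours, so these neighbours had no order. At the bottom, Ptgds had a median of 0.425 FPKM and Ptger1 one of 0.0737 FPKM. The medians hide how far some genes ranged: Ptgs2 ran from 0.0725 to 36.3 FPKM and Ptgds from 0 to 18.4 FPKM, while Ptges2 stayed between 5.62 and 13.4 FPKM.

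**Figure D1:**
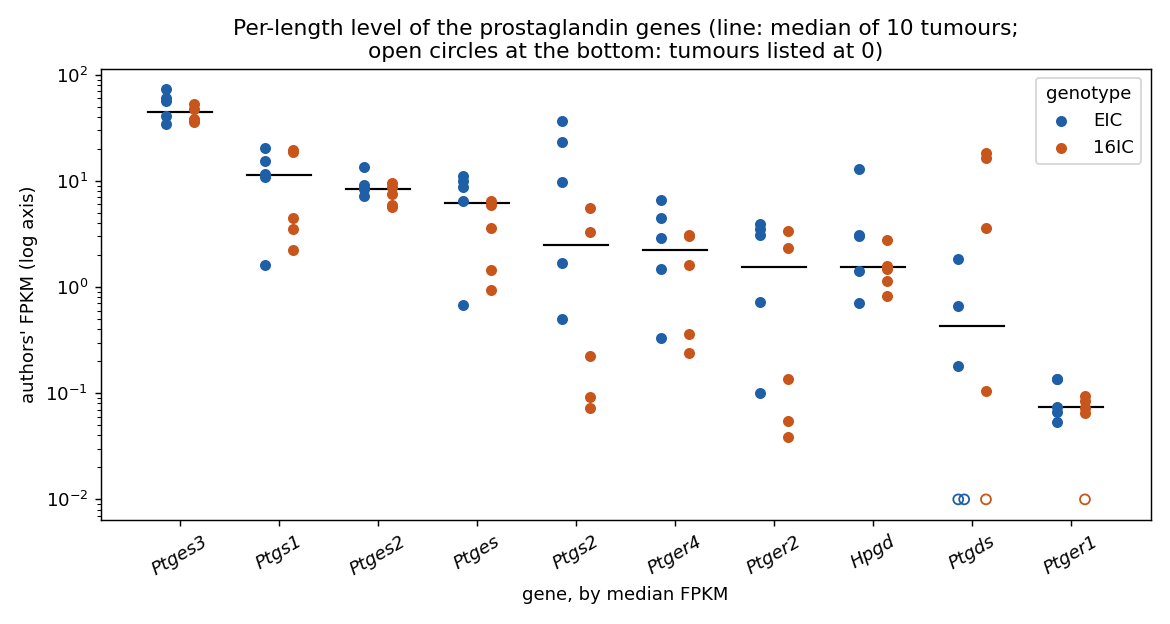
Level per gene length in each tumour, as the authors' FPKM on a log axis, for the 10 genes ordered by their median (black line), with EIC and 16IC as separate colours (n = 5 each) and open circles for tumours listed at 0. Ptges3 lies above all others in every tumour, and Ptgs2 and Ptgds spread over the widest ranges, from 0.0725 to 36.3 FPKM and from 0 to 18.4 FPKM.

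Ptgs1, the gene of the constitutive cyclooxygenase (chromosome 2, 36230426 to 36252272, plus strand, GRCm38), was expressed in every tumour but unevenly. Its level was 42.8, 6.48, 46.7, 62.1 and 81.8 CPM in EIC 1 to 5 and 77.8, 8.98, 77.8, 17.9 and 13.95 CPM in 16IC 1 to 5. EIC 2, 16IC 2, 16IC 5 and 16IC 4 were low, EIC 5, 16IC 1 and 16IC 3 were high, and the genotypes overlapped over most of the range. The means were 48.0 ± 27.8 CPM in EIC against 39.3 ± 35.3 CPM in 16IC, which amounts to a log2 difference of -0.29 (SE 0.72, 95% interval -1.89 to 1.31, edgeR adjusted p = 0.876). With 1 tumour left out it ran from -0.69 (without 16IC 3) to -0.01 (without EIC 5) by edgeR, and it was 0.0020 by DESeq2 without EIC 5.

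Ptgs2, the gene of the inducible cyclooxygenase (chromosome 1, 150100031 to 150108227, plus strand), spanned a far wider range than Ptgs1. In EIC 1 to 5 it stood at 106, 2.38, 8.03, 46.6 and 171 CPM, and in 16IC 1 to 5 at 0.432, 26.6, 1.09, 0.343 and 15.4 CPM. The 3 highest tumours were EIC and the 3 lowest were 16IC, but EIC 2 and EIC 3 lay below 16IC 2 and 16IC 5, so the groups overlapped. The highest tumour, EIC 5, was 499-fold above the lowest, 16IC 4, in which the gene rested on 5 counts. Group means were 66.9 ± 71.5 CPM in EIC against 8.76 ± 11.8 CPM in 16IC. The log2 difference of -2.93 (SE 1.37, 95% interval -5.95 to 0.10) did not pass edgeR's test (adjusted p = 0.391, unadjusted p = 0.0567), nor DESeq2 (adjusted p = 0.232), and it was -3.94 to -2.21 in edgeR fits with 1 tumour left out.

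Which cyclooxygenase transcript prevailed therefore differed between tumours of the same genotype. By the authors' FPKM, Ptgs2 exceeded Ptgs1 in EIC 1 (a ratio of 2.11), EIC 5 (1.77) and 16IC 2 (2.51), and nearly equalled it in 16IC 5 (0.934). It was below Ptgs1 in EIC 4 (0.637), EIC 2 (0.311) and EIC 3 (0.146). In 16IC 1, 16IC 3 and 16IC 4 the cyclooxygenase transcripts were almost all Ptgs1, which exceeded Ptgs2 there by 212-fold, 83.8-fold and 61.6-fold. EIC 2 and 16IC 4 were thus low in both genes, whereas 16IC 1 and 16IC 3 combined some of the highest Ptgs1 levels with nearly no Ptgs2.

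Among the prostaglandin E synthases, Ptges, the membrane-bound inducible enzyme that works together with Ptgs2 (chromosome 2, 30889471 to 30929863, minus strand), varied most. It measured 44.3, 2.73, 35.5, 40.4 and 25.9 CPM in EIC 1 to 5 and 3.75, 14.7, 24.8, 5.83 and 25.9 CPM in 16IC 1 to 5. EIC 2, 16IC 1 and 16IC 4 were low, and 16IC 3, which had nearly no Ptgs2, held nearly as much Ptges as EIC 5. The log2 difference was -0.99 (SE 0.69, edgeR adjusted p = 0.544), from 29.8 ± 16.6 CPM in EIC against 15.0 ± 10.3 CPM in 16IC, with overlapping groups.

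Ptges2 and Ptges3 were steady. Ptges2, a membrane-associated synthase (chromosome 2, 32395896 to 32405772, plus strand), ran from 29.3 CPM (16IC 4) to 69.9 CPM (EIC 5), 2.38-fold, and averaged 48.6 ± 12.6 CPM in EIC against 38.8 ± 8.48 CPM in 16IC. Its log2 difference was -0.32 (SE 0.21, 95% interval -0.78 to 0.13, edgeR adjusted p = 0.502). Ptges3, a cytosolic synthase that also serves as the HSP90 co-chaperone p23 (chromosome 10, 128058954 to 128077272, plus strand), ran from 79.4 CPM (EIC 2) to 167 CPM (EIC 5). The EIC tumours 1 to 5 held 136, 79.4, 93.3, 129 and 167 CPM of Ptges3 and the 16IC tumours 85.7, 121, 87.8, 81.8 and 107 CPM. Although narrow, this range was ordered: EIC 2 and 16IC 1, 3 and 4, which held the least, were the tumours lowest in Ptgs2. The Ptges3 difference was -0.32 (SE 0.21, edgeR adjusted p = 0.514), and without EIC 5 it was -0.18, as that of Ptges2 was -0.16. The annotated pseudogene Ptges3-ps had 410 to 868 counts of its own, and the labels do not say how reads matching both copies were counted, so the Ptges3 level is uncertain to that extent.

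Ptgds encodes the lipocalin-type enzyme that makes prostaglandin D and is known from brain coverings, heart and male genital tract (chromosome 2, 25466709 to 25470046, minus strand). It had 0, 53, 19, 5 and 0 counts in EIC 1 to 5, which are 0, 3.15, 1.14, 0.313 and 0 CPM. In 16IC 1 to 5 it had 83, 0, 529, 412 and 3 counts, or 5.98, 0, 32.2, 28.2 and 0.176 CPM. Thus 16IC 3 and 16IC 4 stood high, 16IC 1 and EIC 2 lay between, and the other 6 tumours, of both genotypes, held at most 1.14 CPM. A count of 0 allows up to 3 counts, which is 0.173 to 0.216 CPM in these libraries, and against that limit of 3 counts in the library EIC 1, which had 0, 16IC 3 was at least 186-fold higher. Within genotypes the SD of its log2 CPM was 3.02, at percentile 99.7 of all genes tested, where the median gene had 0.43. The genotype means were 0.920 ± 1.33 CPM in EIC against 13.3 ± 15.7 CPM in 16IC, and the log2 difference, given as a description, was 3.84 (SE 1.67), and 3.21 to 5.18 with 1 tumour left out, the last without EIC 2. The groups overlapped, since 16IC 2 and 16IC 5 were as low as the lowest EIC tumours.

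Markers of 2 cell types known for prostaglandin D were set beside these levels. The leptomeninges list, of which 5 of 7 genes are in the table, summed to 0.832 to 2.56 CPM in EIC tumours and 0.365 to 1.96 CPM in 16IC, with 4 genes under 1 CPM in every tumour. It was 0.365 CPM in 16IC 3, the tumour highest in Ptgds. Mast cells, which make prostaglandin D with the other enzyme, Hpgds, were followed by 9 genes that summed to 235 to 617 CPM in EIC tumours and 376 to 478 CPM in 16IC. Most of that sum was Kit, which epithelial cells also express. The other 8 mast cell genes summed to 4.37 to 24.6 CPM in EIC tumours and 0.243 to 17.7 CPM in 16IC, with the least, 0.243 and 2.06 CPM, in 16IC 3 and 16IC 4, the tumours highest in Ptgds. Hpgds itself was at 6.41 ± 2.10 CPM in EIC against 3.97 ± 1.53 CPM in 16IC (log2 -0.69, SE 0.34, edgeR adjusted p = 0.407). The part of other cells in the Ptgds levels was not tested further.

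Breakdown was followed by Hpgd, the dehydrogenase that inactivates prostaglandin E (chromosome 8, 56294585 to 56321043, plus strand), and 1 tumour stood apart. EIC 2 held 22.6 CPM, while EIC 1, 3, 4 and 5 held 5.22, 5.21, 1.25 and 2.47 CPM. The 16IC tumours lay within that lower range, at 1.95, 2.62, 1.46, 4.8 and 2.70 CPM. The log2 difference was -1.44 (SE 0.71, edgeR adjusted p = 0.405), and it shrank to -0.38 without EIC 2. EIC 2 also had the highest sum of 7 skeletal muscle markers, 2310 CPM, against 977 CPM in EIC 1 and 0.973 to 332 CPM in the other 8 tumours, and whether muscle contributed to its Hpgd was not tested. EIC 1, the tumour with the next highest muscle sum, had 5.22 CPM of Hpgd, close to the 5.21 CPM of EIC 3, whose muscle sum was 2.58 CPM.

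Set against each other per length, Ptges exceeded Hpgd in 7 of 10 tumours. The ratio of Ptges to Hpgd by the authors' FPKM was 13.9 in EIC 4, 7.28 in 16IC 3, 4.49 in EIC 5, 4.11 in 16IC 5, 3.63 in EIC 1, 2.91 in EIC 3 and 2.41 in 16IC 2. It lay below 1 in 16IC 1 (0.825), 16IC 4 (0.520) and EIC 2 (0.0517), which had the least Ptges. EIC 2 was therefore the tumour with the least Ptges and the most Hpgd transcript of the 10.

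Of the receptors, Ptger4 and Ptger2 were both expressed and both varied from tumour to tumour. Ptger2 (chromosome 14, 44988195 to 45003820, plus strand) stood at 20.3, 0.535, 3.89, 19.2 and 16.6 CPM in EIC 1 to 5 and at 0.720, 18.3, 0.304, 0.206 and 12.4 CPM in 16IC 1 to 5. The levels were unevenly spread: EIC 2 and 16IC 1, 3 and 4 lay under 1 CPM, and 5 tumours lay between 12.4 and 20.3 CPM. EIC 3 stood between them, at 3.89 CPM. Means were 12.1 ± 9.21 CPM in EIC against 6.4 ± 8.46 CPM in 16IC, which amounts to a log2 difference of -0.92 (SE 1.22, 95% interval -3.61 to 1.78, edgeR adjusted p = 0.755). It was -1.82 without 16IC 2 and -0.61 without 16IC 3.

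Ptger4 (chromosome 15, 5206661 to 5244187, minus strand) measured 29.96, 2.26, 10.2, 20.1 and 45.1 CPM in EIC 1 to 5 and 10.8, 20.9, 1.70, 2.47 and 20.8 CPM in 16IC 1 to 5. EIC 2, 16IC 3 and 16IC 4 were again low, but 16IC 1 was not, at 10.8 CPM, slightly above EIC 3. The log2 difference was -0.92 (SE 0.83, edgeR adjusted p = 0.628), from 21.5 ± 16.8 CPM in EIC against 11.3 ± 9.39 CPM in 16IC, and -0.46 without EIC 5. Per length, Ptger4 exceeded Ptger2 in 8 of 10 tumours, with ratios of 11.7 in 16IC 1 and 9.37 in 16IC 4. The receptors were closer in EIC 1 (1.15), 16IC 5 (1.30), 16IC 2 (0.893) and EIC 4 (0.817). Other genes on the opposite strand overlap 16.5% of the exonic bases of Ptger4 and 4.74% of those of Ptger2, and the labels do not say whether counting used strand.

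Ptger1, the receptor that signals through calcium (chromosome 8, 83666678 to 83672753, plus strand), had at most 0.772 CPM (EIC 2) and 0 counts in 16IC 4, and did not pass the filter on low counts. Its means were 0.524 ± 0.222 CPM in EIC against 0.358 ± 0.210 CPM in 16IC, and DESeq2, which ran without that filter, gave an adjusted p of 0.729. These few counts are uncertain, as the labels do not say whether reads were counted by strand. Ptger3, the prostaglandin E receptor that lowers cyclic AMP, was low too, at 2.06 ± 1.30 CPM in EIC against 1.56 ± 1.53 CPM in 16IC (edgeR adjusted p = 0.842).

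**Figure D2:**
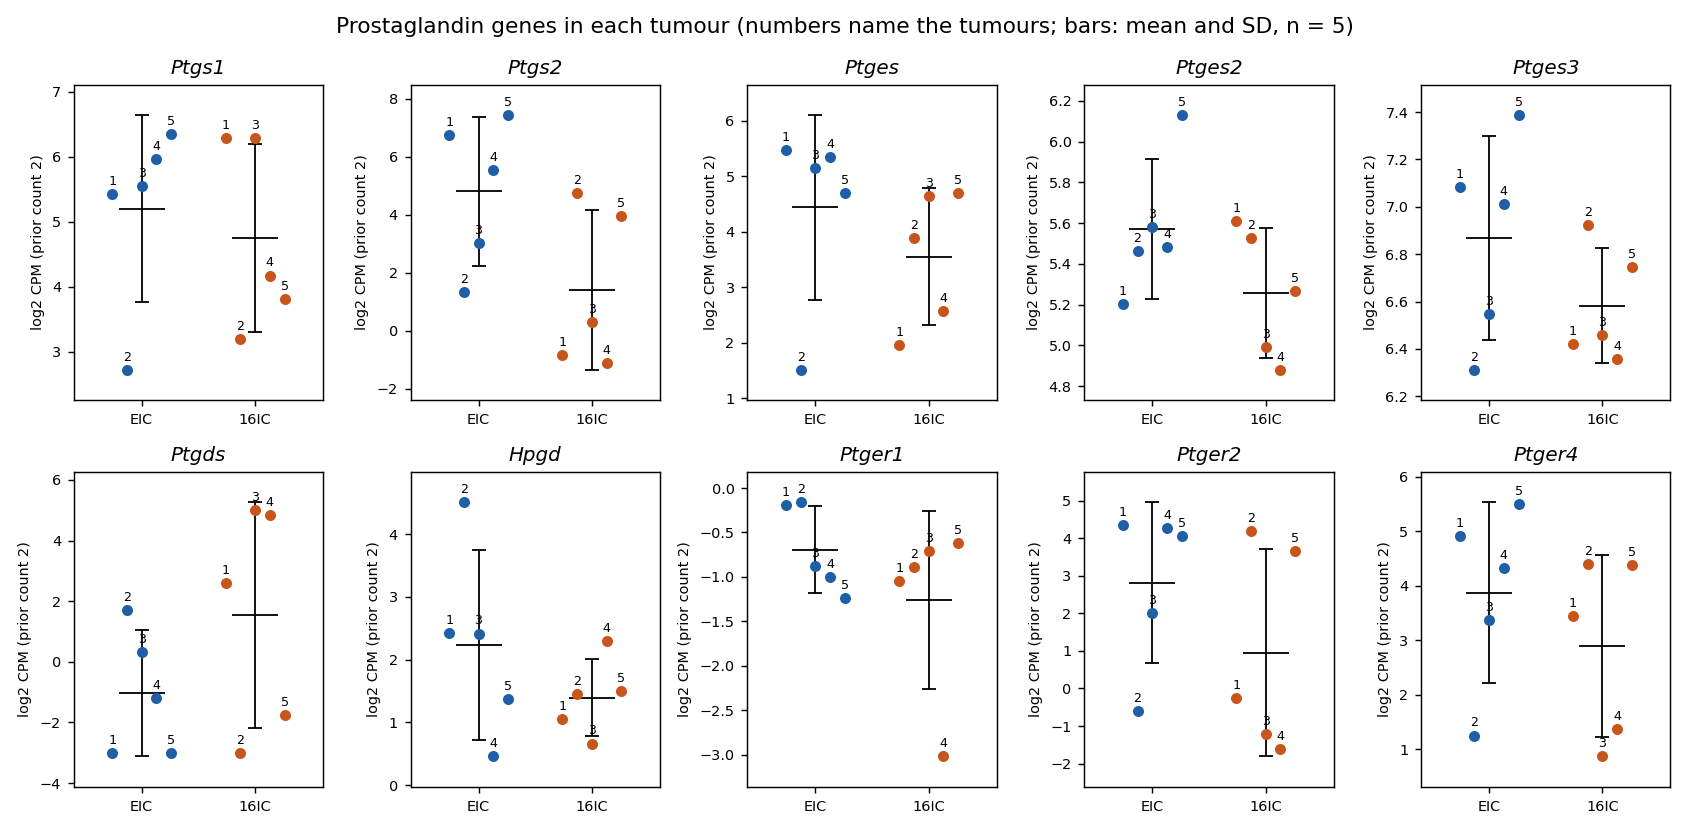
Level of each gene as log2 CPM with a prior count of 2, every point a tumour carrying its number, with the mean and SD of the 5 tumours of each genotype. EIC and 16IC overlap in all 10 panels, and EIC 2 and 16IC 1, 3 and 4 lie at the bottom for Ptgs2, Ptges3 and Ptger2 and at the top for Ptgds.

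Levels of the genotypes overlapped for all 10 genes. Of the 9 that passed the filter, 8 were lower and 1, Ptgds, was higher in 16IC, with a median log2 difference of -0.92, where all genes tested had a median of -0.02 (7114 higher and 7801 lower). edgeR called 0 of the 9 and 0% of all genes tested, and DESeq2 called 0 of the 10 where it called 2.11% of 16838 genes. At an unadjusted p under 0.05 edgeR had 1 of the 9, Ptgds, whose spread had chosen it, against 13.1% of all genes tested. Levels without overlap between the genotypes were found for 0 of the 10, against 2.58% of genes tested. In the authors' deposited table the smallest adjusted p among the 10 was that of Ptgs2, 0.232, with a log2 fold change of -2.95. The intervals are wide because tumours of a genotype differed: the biological coefficient of variation, the spread between tumours beyond counting error, was 180% for Ptgds, 129% for Ptgs2 and 123% for Ptger2, against 33.6% for the median gene, and 27.2% for Ptges2 and 27.0% for Ptges3.

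**Figure D3:**
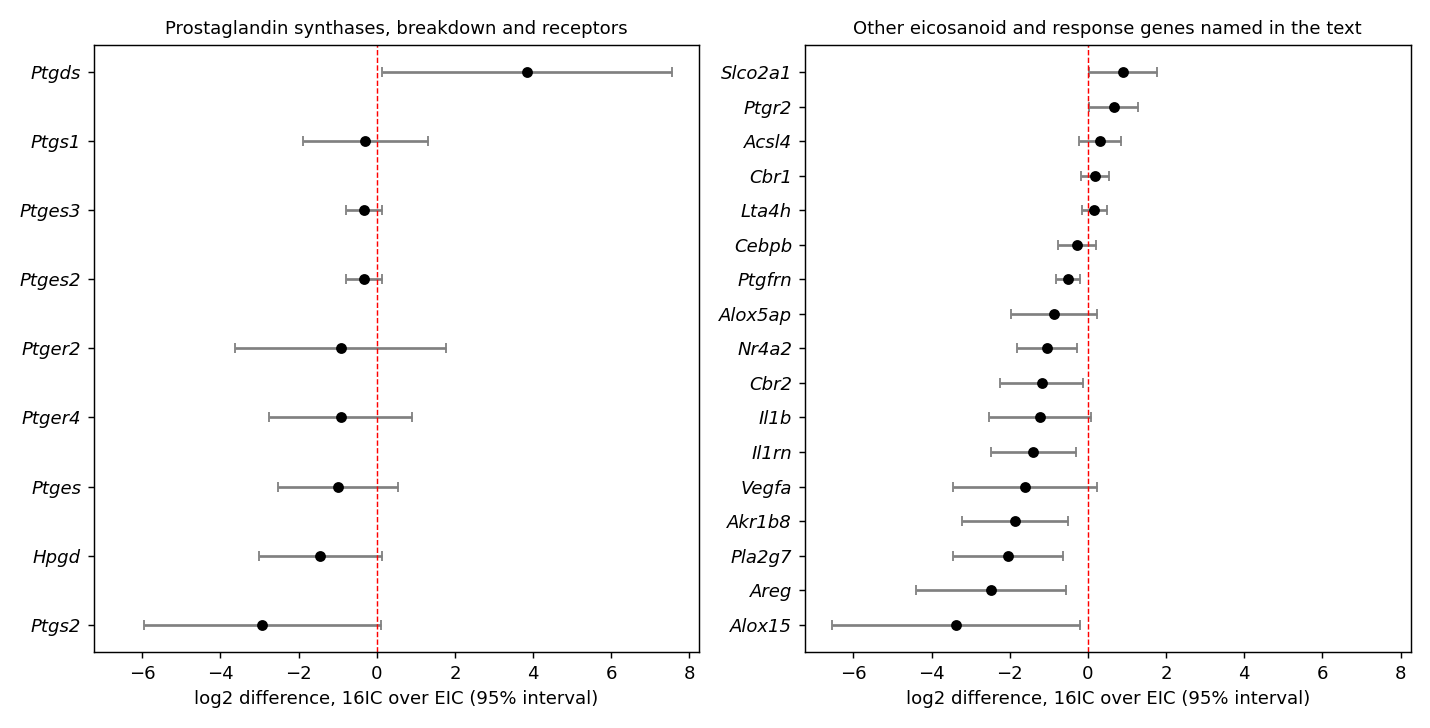
Log2 difference of 16IC over EIC with its 95% interval from edgeR (n = 5 tumours per genotype), for the 9 tested members on the left and for other named genes of the pathway on the right. Of the members only Ptgds, whose spread was known when it was chosen, has an interval that leaves out 0 (0.14 to 7.55), and no gene in either panel passed the adjusted test.

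The ordering of tumours that recurs above cut across the genotypes. The 4 tumours lowest in Ptgs2 were 16IC 4, 16IC 1, 16IC 3 and EIC 2, and the same 4 were the lowest in Ptger2 and in Ptges3 and the highest in Ptgds. For Ptger4 and for Ptges, 3 of these 4 were among the 4 lowest. Ptgs1, Ptges2 and Hpgd did not follow this order, with 2 of the 4 each among the 4 lowest. The gaps differed in size: between these 4 and the other 6 tumours, Ptger2 left a gap from 0.720 to 3.89 CPM, Ptgs2 one from 2.38 to 8.03 CPM, Ptgds one from 1.14 to 3.15 CPM, and Ptges3 only one from 87.8 to 93.3 CPM. EIC 3 was nearest to the 4 in each of these genes. These sets of tumours were seen in the data, so no test was made between them.

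**Figure D4:**
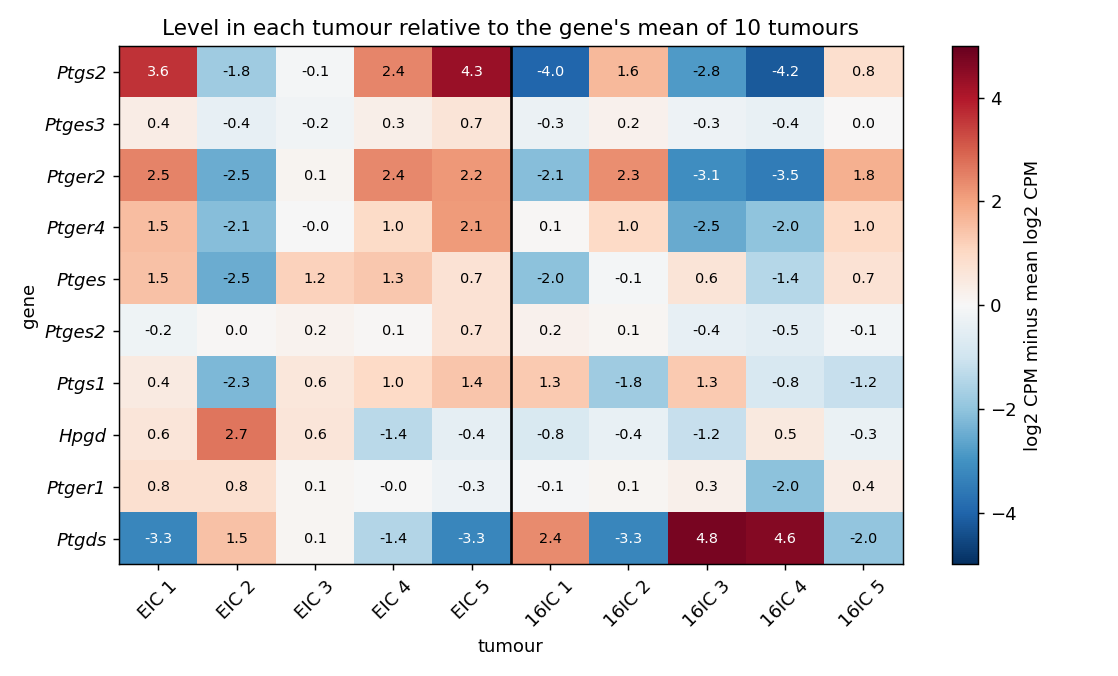
Log2 CPM of each gene in each tumour minus the mean of that gene over the 10 tumours, red above and blue below the mean, with EIC left and 16IC right of the black line. The columns EIC 2, 16IC 1, 16IC 3 and 16IC 4 are blue for Ptgs2, Ptges3 and Ptger2 and red for Ptgds, and the rows of Ptgs1 and Hpgd run in other orders.

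Markers of other cell types followed this order in part. The 4 tumours low in Ptgs2 are also those nearly without Krt19. The 10 macrophage markers, none of them at 0, summed to 628 to 1621 CPM in EIC tumours and 441 to 1704 CPM in 16IC. The sums were 1169 to 1704 CPM in the 5 tumours with the most Ptgs2 and 441 to 728 CPM in the other 5. This split was not set in advance, so a lack of overlap under it is a description only. It puts EIC 3 with the 4 tumours low in Ptgs2, and EIC 3 had more Ptgs2 than EIC 2 and 16IC 1 but a lower sum, 628 CPM. The high sums rested largely on Cd14 and Lyz2, as in EIC 5 (772 and 293 CPM) and 16IC 2 (751 and 469 CPM). Of the single macrophage markers, Cd68, Mrc1 and Cd163 overlapped between the sets and the rest did not. Cd163 was lowest in EIC 5, at 5.36 CPM. The 10 fibroblast markers summed to 1961 to 7159 CPM in EIC tumours and 426 to 3896 CPM in 16IC, and to 3135 to 7159 CPM in the 5 tumours with the most Ptgs2 and 426 to 2707 CPM in the other 5. Of the single fibroblast markers, Col1a1, Dcn, Lum and Fap overlapped between these sets and the rest did not. Dcn was at 117 CPM in 16IC 4 and 102 CPM in 16IC 1, above all but EIC 1 of the 5 tumours with the most Ptgs2. The 8 adipocyte markers summed to 36.6 to 353 CPM in EIC tumours and 25.1 to 396 CPM in 16IC, and to 229 to 396 CPM in the 5 tumours with the most Ptgs2 and 25.1 to 72.1 CPM in the other 5. Of the single adipocyte markers, only Lipe overlapped between these sets. The 8 neutrophil markers in the table summed to 14.4 to 107 CPM in EIC tumours and 3.71 to 22.5 CPM in 16IC, and overlapped between those sets of 5 (16.5 to 107 and 3.71 to 21.7 CPM). Sums of endothelial, pericyte and smooth muscle, luminal, basal and lymphocyte markers overlapped between those sets as well. When EIC 3 is counted against the 4 tumours low in Ptgs2, macrophage and adipocyte sums overlapped, and fibroblast and neutrophil sums did not. None of these lists had a gene at 0 in every tumour, and their part in the order of the prostaglandin genes was not tested.

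Because Ptgs2, Ptges3, Ptger2 and Ptgds shared this order of tumours, the last in reverse, their promoters are printed, from RefSeq on GRCm38.p6, each 250 bases before to 50 bases after the annotated start, read 5′ to 3′ on the strand of the gene. A promoter was matched for 9 of the 10 genes, all but Ptger1. Searched on both strands, 4 motifs are set in capitals where they occur: CGTCA, the core of the cyclic AMP response element, held by 20.8% of 32851 promoters of this length; CACGTG, an E-box, held by 7.15%; TTGCGCAA, the palindrome of C/EBP factors, held by 0.183%; and TATAAA, the TATA box, held by 13.6%.
Ptgs2 (chr1:150099781-150100080, plus strand): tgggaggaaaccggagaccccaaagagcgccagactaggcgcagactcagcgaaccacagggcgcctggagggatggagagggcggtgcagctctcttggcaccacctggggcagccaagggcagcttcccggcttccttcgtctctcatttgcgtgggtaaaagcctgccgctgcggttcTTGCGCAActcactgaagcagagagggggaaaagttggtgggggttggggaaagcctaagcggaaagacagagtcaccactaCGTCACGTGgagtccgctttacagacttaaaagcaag
Ptges3 (chr10:128058732-128059031, plus strand): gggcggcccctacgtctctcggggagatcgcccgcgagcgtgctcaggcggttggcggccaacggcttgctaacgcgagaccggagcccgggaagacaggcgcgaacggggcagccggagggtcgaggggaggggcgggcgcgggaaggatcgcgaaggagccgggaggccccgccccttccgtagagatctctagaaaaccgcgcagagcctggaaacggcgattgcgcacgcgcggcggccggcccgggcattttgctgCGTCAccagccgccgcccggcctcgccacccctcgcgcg
Ptger2 (chr14:44987861-44988160, plus strand): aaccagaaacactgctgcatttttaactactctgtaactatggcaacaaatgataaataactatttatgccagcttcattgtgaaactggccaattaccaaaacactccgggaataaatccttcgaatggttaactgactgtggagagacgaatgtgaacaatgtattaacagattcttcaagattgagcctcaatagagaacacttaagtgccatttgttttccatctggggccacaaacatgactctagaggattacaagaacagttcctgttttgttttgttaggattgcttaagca
Ptgds (chr2:25469700-25469999, minus strand): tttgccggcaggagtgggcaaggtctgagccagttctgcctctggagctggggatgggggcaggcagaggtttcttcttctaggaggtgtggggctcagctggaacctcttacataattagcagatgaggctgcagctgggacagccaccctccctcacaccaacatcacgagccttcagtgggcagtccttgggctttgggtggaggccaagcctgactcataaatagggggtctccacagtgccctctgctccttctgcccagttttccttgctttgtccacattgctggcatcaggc
Ptgs2 held 3 of the 4 motifs. TTGCGCAA begins 69 bases before its annotated start, and CGTCA and CACGTG, which share 2 bases, begin 13 and 16 bases after it. Ptges3 held CGTCA, beginning 11 bases after the start, and Ptger2 and Ptgds held none of the 4 motifs in this window. Of the promoters not printed, that of Ptges2 held CACGTG and that of Hpgd TATAAA, and those of Ptgs1, Ptges and Ptger4 held none. A match is a run of letters and was not tested as a binding site, and genes with the same order of tumours did not share a motif of the 4 beyond CGTCA in Ptgs2 and Ptges3. Distances count from annotated starts, which need not be the starts used in these tumours. For Ptgds that start, 25469749, lies inside the annotated gene (25466709 to 25470046), and for Ptger2, at 44988111, before it (44988195 to 45003820).

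Genes whose log2 CPM ran most like that of Ptgs2 over the 10 tumours, out of 12406 candidates, were Snai1, a transcription factor of epithelial-mesenchymal transition (Pearson r 0.98), Zyx, a focal adhesion protein (0.97), Cd53, a leukocyte tetraspanin (0.97), the taurine transporter gene Slc6a6 (0.97) and the myeloid lectin gene Clec4a1 (0.97). Snai1, for instance, lay at 3.46 to 5.53 CPM in the 4 tumours lowest in Ptgs2 and at 15.6 to 47.6 CPM in the other 6. For Ptgds they were Tmem87b (0.98), Pex5, an import receptor of peroxisomes (0.97), Mrps5, a mitochondrial ribosomal protein (0.97), the deubiquitinase gene Usp8 (0.97) and Tbc1d30 (0.97). Of these 5, 3 lie on chromosome 2, as Ptgds does and as 7.85% of the candidates do. Their levels differed far less than that of Ptgds: Tmem87b ran from 54.7 CPM (16IC 2) to 115 CPM (16IC 4). Each r describes 10 tumours that fall into sets and share their libraries, and carries no test.

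The remaining genes of the pathway were followed in 7 lists of 91 genes, of which 67 were tested, 23 higher and 44 lower in 16IC with a median log2 difference of -0.25. edgeR called 0 of them, with 14 at an unadjusted p under 0.05 and a smallest adjusted p of 0.261, and DESeq2 called 2, Pla2g7 and Ptgfrn. Over all genes these shares were 0% called by edgeR, 13.1% at an unadjusted p under 0.05 and 2.11% called by DESeq2. Upstream, the list of arachidonate release had 8 higher and 6 lower of 14 tested (median 0.14). It also counts genes of other steps, among them Pla2g7 and Acsl4, so these numbers do not describe release alone. Pla2g7, a secreted phospholipase that degrades platelet-activating factor, stood at 157 ± 85.6 CPM in EIC against 38.2 ± 28.3 CPM in 16IC (log2 -2.04, SE 0.63). DESeq2 called it (adjusted p = 0.0345) and edgeR did not (adjusted p = 0.289), and the DESeq2 call was lost without EIC 1, EIC 4, EIC 5, 16IC 1, 16IC 3 or 16IC 4 (highest adjusted p 0.147). Acsl4, which attaches arachidonate to coenzyme A, was the most abundant of that list at 1180.0 ± 333 CPM in EIC against 1454 ± 383 CPM in 16IC (log2 difference 0.30, and 0.14 without 16IC 1, edgeR adjusted p = 0.593). Pla2g4a, the cytosolic phospholipase that frees arachidonate for the cyclooxygenases, ranged from 8.21 to 110 CPM, with overlapping groups (edgeR adjusted p = 0.790). It was at most 25.5 CPM in the 4 tumours lowest in Ptgs2 and at least 31.99 CPM in the other 6, and was singled out after its values were seen.

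Of the other prostanoid synthases, 4 were higher and 6 lower of 10 tested (median -0.47). Akr1b8, an aldo-keto reductase, had 19.3 ± 13.2 CPM in EIC against 5.27 ± 2.80 CPM in 16IC (log2 -1.87, SE 0.61, edgeR adjusted p = 0.290). The carbonyl reductase genes Cbr2 and Cbr1 differed by -1.18 (SE 0.48) and 0.19 (SE 0.16, and 0.09 without EIC 4), neither past the test. In the list of transport and breakdown, divided 4 to 4, Slco2a1, the transporter that takes prostaglandins into cells, had 190 ± 79.6 CPM in EIC against 357 ± 138 CPM in 16IC (log2 0.91, SE 0.39, edgeR adjusted p = 0.364). Ptgr2, a reductase of the step after Hpgd, had 30.3 ± 8.51 and 47.9 ± 18.4 CPM (0.66, SE 0.28, edgeR adjusted p = 0.363).

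The list of other prostanoid receptors had 2 higher and 4 lower of 6 tested. Ptgfrn, whose product associates with the prostaglandin F receptor and lowers its binding of prostaglandin, was the 1 tested gene of the 7 lists without overlap between the genotypes, where 2.58% of all genes tested had none. It had 166 ± 22.4 CPM in EIC against 116 ± 15.0 CPM in 16IC, which amounts to a log2 difference of -0.52 (SE 0.14, 95% interval -0.82 to -0.21). DESeq2 called it (adjusted p = 0.0424), edgeR did not (adjusted p = 0.261), and the DESeq2 call held without EIC 2 or 16IC 3 but was lost in the other 8 fits with 1 tumour left out (highest adjusted p 0.170). Ptgfr, the receptor itself, was low at 2.13 ± 2.22 and 5.61 ± 5.80 CPM (log2 1.39, SE 1.02, edgeR adjusted p = 0.561).

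On the lipoxygenase branch, which uses the same arachidonate, 1 gene was higher and 5 were lower of 6 tested (median -0.69). Alox15 had 35.3 CPM in EIC 1 and at most 5.31 CPM in the other EIC tumours, so that its log2 difference of -3.36 (SE 1.43, edgeR adjusted p = 0.362) was -1.04 without EIC 1. Genes that the cyclic AMP signal of Ptger2 and Ptger4 is known to induce were lower in 10 of 11 (median -0.28), where 7801 of all 14915 genes tested were lower. Some of these differences were near 0, as for Crem (-0.01), Nr4a1 (-0.03) and Pde4d (-0.10). Neither edgeR nor DESeq2 called any gene of this list, and the signal itself was not measured. Areg, an EGF receptor ligand, had 7.0 ± 4.62 CPM in EIC against 1.24 ± 1.42 CPM in 16IC (log2 -2.49, SE 0.87, edgeR adjusted p = 0.305). Nr4a2, a nuclear receptor, had 9.34 ± 4.17 and 4.55 ± 0.818 CPM (-1.04, SE 0.35, edgeR adjusted p = 0.291). In the list of known inducers of Ptgs2 and Ptges, which also counts the antagonist Il1rn, 9 of 12 genes tested were lower (median -0.21). Il1b had 7.78 ± 3.11 and 3.31 ± 2.69 CPM (-1.23, SE 0.59, edgeR adjusted p = 0.397). Il1rn, its antagonist and so no inducer, had 7.36 ± 3.86 and 2.79 ± 1.35 CPM (-1.40, SE 0.49, edgeR adjusted p = 0.306). Cebpb, which binds the C/EBP palindrome, was the most abundant of that list at 497 ± 124 and 412 ± 104 CPM (-0.27, SE 0.22, edgeR adjusted p = 0.600), and the difference was -0.12 without EIC 5 and -0.18 without 16IC 4.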

How the data were processed

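Per the labels' protocols, the RNA of 10 mammary tumours came from Qiagen's RNeasy Mini kit and the libraries from NEBNext Ultra II. Per the submitters' processing notes, the tools were limma, edgeR, HTSeq, STAR and Trimmomatic, and the genome GRCm38 (mm10). Versions, annotation and strand setting: not given in the sources used here. The deposited table holds the authors' raw counts per gene, which every test used. It also holds the authors' FPKM values, used for levels between genes, the authors' normalized counts, a signal equal to the counts divided by 1 factor per library, and the p-values and log2 fold changes that the authors deposited for 16IC over EIC, which were set beside the results. Their adjusted p is 1 where no p is given (157 genes). No per-sample column was left out.

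Counts were filtered with filterByExpr (minimum count 10), scaled by TMM and fitted with edgeR 4.0.16 (robust quasi-likelihood, genotype only) in R 4.3.3 over 14915 genes, with SEs from the F statistic. Alternatives were DESeq2 1.42.0, other scalings and filters, the fit without the robust option and each tumour left out. The fitting code was tested on simulated data. P-values rest on how tumours of different animals differ. The closest libraries of a group, 16IC 2 and 16IC 5, were no duplicates (chi-square of 26.3 for each degree of freedom). Log2 CPM used a prior count of 2, and a limit for 0 counts is 3 counts, which covers counting error only. Overlaps came from GENCODE release 21, and 1 of them, at Ptger1, is not reported here. Of 91 list genes, 87 are in the table.

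Members and lists were chosen with earlier results of these data known. Named genes are the 10 members, list genes called by edgeR or DESeq2, otherwise the 2 of each list with the smallest edgeR p and a mean log2 CPM of at least 1, the most abundant gene of each list, and the 5 genes most like Ptgds and Ptgs2 by Pearson r. Hpgds, Ptger3, Ptgfr and Pla2g4a were added after the data were seen, for their place in the pathway.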

Additional observations from a re-analysis of the deposited data

Results flagged for a closer look

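In 27 genes and both genotypes, 54 groups of 5 tumours were searched for a tumour set apart from the rest by a gap that takes up most of the range (more than 0.710 of it, Dixon's limit), and 7 were found. Chance alone marks about 1 group in 20 if levels are normally distributed and groups are independent. CPM need not be so distributed and the genes share their tumours, so 7 of 54 is not shown to be an excess. Hpgd had 22.6 CPM in EIC 2 and 1.25 to 5.22 CPM in the other EIC tumours. EIC 2 also stood apart in Ptgr2, the reductase that acts after Hpgd, with 45.2 CPM against 24.1 to 29.3 CPM, and in Lta4h, which makes leukotriene B, with 74.2 CPM against 49.1 to 55.5 CPM. For Lta4h, 16IC 3 stood apart as well, with 78.6 CPM against 57.6 to 62.5 CPM in the other 16IC tumours. Alox15 had 35.3 CPM in EIC 1 and 0 to 5.31 CPM in the others, and that tumour also had the highest sum of 9 skin keratinocyte markers, 42.4 CPM against 3.91 to 7.55 CPM elsewhere. Vegfa, the vessel growth factor, reached 1260 CPM in EIC 3 against 45.8 to 394 CPM. Cbr1 was low in EIC 4, at 22.7 CPM against 31.98 to 35.5 CPM.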

How the results depend on the processing

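Each of the 9 tested prostaglandin genes was refitted under 26 alternatives, and 233 of 234 differences kept their direction and stayed short of the threshold. The exception was Ptgs1, at 0.0020 by DESeq2 without EIC 5. The smallest adjusted p was 0.0790 (Ptgs2, DESeq2 without 16IC 2). Genes called over the whole table numbered 0 with edgeR and 356 with DESeq2, and 0 to 2 with edgeR when 1 tumour was left out (1 without EIC 1, 2 without EIC 2). With DESeq2 they numbered 217, 839, 350, 203 and 286 without EIC 1 to 5 in turn and 243, 549, 226, 178 and 579 without 16IC 1 to 5. In the 7 lists of other pathway genes they numbered 0 with edgeR and 2 with DESeq2, and with DESeq2 10 without EIC 2, 4 without 16IC 2, 3 without 16IC 5, 1 without EIC 3 or 16IC 3 and 0 without any other. The DESeq2 fits with a tumour left out were added after seeing the data. No paired analysis was possible because a tumour's number comes only from the sample list and links it to no tumour of the other genotype. Spread between tumours, not depth, limits most values, while Ptger1, and Ptgds, Ptgs2 and Ptger2 in their lowest tumours, rest on few counts.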

Other observations

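Genes most like the other members were read from the same 10 tumours after the data were seen, as a description with no test. Ptgs1 ran most like Dhx58 (Pearson r 0.92) and Rsad2 (0.90), which interferon induces. The others of its 5 were Tmem139 (0.88), Osbpl10 (0.88) and Rcor1 (0.86). Rsad2 lay at 71.1 CPM in 16IC 1 and 74.3 CPM in EIC 4, both high in Ptgs1, and at 3.03 CPM in EIC 2, the tumour lowest in Ptgs1. In EIC 5, the tumour highest in Ptgs1, Rsad2 was at 44.2 CPM, and in 16IC 3, also high in Ptgs1, at 38.6 CPM. Ptges ran most like the receptor gene Ephb6 (0.95). Ptger2 ran most like Parp8 (0.99), and the 5 genes most like it included 4 on chromosome 4, where 6.37% of the candidates lie, and Ptger2 is on chromosome 14.

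Whole stretches of chromosomes differed in level between the tumours. Of 466 genes on chromosome 4 beyond 80 Mb, the median deviation of log2 CPM from each gene's median over the 10 tumours was -0.51 in EIC 2, -0.48 in 16IC 1, -0.51 in 16IC 3 and -0.47 in 16IC 4, which are the 4 tumours lowest in Ptgs2. It was -0.09 in EIC 3 and 0.20 to 0.34 in the other 5. Up to 80 Mb on chromosome 4 the set of tumours was another one. There the median of 204 genes was -0.78 in EIC 2 and -0.71 in 16IC 3. It was 0.02 to 0.11 in the other 8 tumours, 16IC 1 and 16IC 4 included. None of the 10 prostaglandin genes lies on chromosome 4. On chromosome 2 up to 100 Mb, where Ptgs1, Ptges, Ptges2 and Ptgds lie, the median of 400 genes was 0.41 in 16IC 1 and 0.48 in 16IC 3 and between -0.11 and -0.02 in the other 8 tumours, 16IC 4 included, although 16IC 4 was high in Ptgds. Beyond 100 Mb on chromosome 2, where 3 of the 5 genes most like Ptgds lie, the median of 452 genes was 0.41, 0.44 and 0.49 in 16IC 1, 16IC 3 and 16IC 4 and -0.12 to -0.05 in the other 7. Pooled, the 9186 genes on the other autosomes and X had medians of -0.03 to 0.02. Such a pooled median lies near 0 whatever single chromosomes do, so it does not show that each of them was level. These stretches were delimited after the data were seen, and their part in the levels of the prostaglandin genes was not tested.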
